A study of Mus musculus with 27 samples.

Results

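Among 27 Trp53-null mouse mammary tumours, 8 had a mean milk gene level over a set threshold and 19 lay below it. These sides were compared across the genes of an Illumina BeadChip. Single milk genes were also high in some tumours of the low side. The sides were chosen by the data themselves. For each tumour the log2 intensities of the measured milk genes were averaged to a marker score, and tumours with a score over 8 were placed on the high side. All tumours grew from Trp53null mammary fragments placed in the inguinal glands of syngeneic BALB/c mice cleared of their own ducts at 3 weeks of age. Hosts received the fragment at 5 weeks of age (juvenile hosts, 15 tumours, named J1 to J15 here) or at 10 weeks (adult hosts, 12 tumours, A1 to A12). The strain, the lost Trp53 and the cleared gland were thus common to both sides, and each gland kept its host's fat, vessels and other stroma. The age of each tumour at collection, the reproductive state of the hosts and whether each tumour came from its own mouse are not given in the labels, so p-values measure only the spread between these samples, which may in part be technical. Trp53 has no probe under that name in the annotation used, so its loss was not checked here.

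Milk is made by the alveolar cells of the mammary lobule. In pregnancy and lactation, prolactin acts on its receptor to activate the transcription factor STAT5, which with Elf5 turns on the genes of the caseins, of the whey proteins and of the proteins that coat the milk fat globule. Caseins bind calcium and form the micelles of milk, Lalba is the regulatory subunit of lactose synthase, and Wap is the whey acidic protein of rodents. Xdh and Btn1a1, a xanthine oxidoreductase and a butyrophilin, are needed to release fat globules, and Cel is a bile salt-stimulated lipase of milk and pancreas. Glycam1 is a mucin-like glycoprotein of milk that is also made by the venules of lymph nodes. Alveolar cells come from luminal progenitors, while hormone-sensing luminal cells carry Esr1, Pgr and Foxa1.

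Promoters of 4 of the marker genes are shown because STAT5 is the known switch of the casein genes and these genes defined the sides. Each stretch, from RefSeq on GRCm38.p6, runs 5′ to 3′ from 250 bases before to 50 bases after the gene's start, and capitals mark matches to TTCNNNGAA, the palindromic STAT motif, which reads the same on both strands.
Csn1s1 (chr5:87665958-87666257, plus strand): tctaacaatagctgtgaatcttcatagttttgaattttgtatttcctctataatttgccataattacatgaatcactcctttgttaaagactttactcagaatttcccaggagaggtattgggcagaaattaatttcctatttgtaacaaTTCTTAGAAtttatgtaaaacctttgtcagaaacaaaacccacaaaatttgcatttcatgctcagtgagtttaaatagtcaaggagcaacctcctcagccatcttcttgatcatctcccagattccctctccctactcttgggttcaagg
Csn2 (chr5:87699376-87699675, minus strand): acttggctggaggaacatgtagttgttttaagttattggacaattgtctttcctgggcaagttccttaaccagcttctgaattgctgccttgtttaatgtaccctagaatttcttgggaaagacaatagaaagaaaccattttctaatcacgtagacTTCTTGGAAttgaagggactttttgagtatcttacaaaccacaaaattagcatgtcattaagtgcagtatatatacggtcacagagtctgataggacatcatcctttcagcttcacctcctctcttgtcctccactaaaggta
Glycam1 (chr15:103565032-103565331, minus strand): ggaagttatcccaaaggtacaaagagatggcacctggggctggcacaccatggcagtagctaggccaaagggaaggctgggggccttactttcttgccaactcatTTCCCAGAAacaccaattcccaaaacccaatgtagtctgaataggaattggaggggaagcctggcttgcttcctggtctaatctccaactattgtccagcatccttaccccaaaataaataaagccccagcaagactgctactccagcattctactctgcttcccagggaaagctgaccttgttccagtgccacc
Wap (chr11:6638600-6638899, minus strand): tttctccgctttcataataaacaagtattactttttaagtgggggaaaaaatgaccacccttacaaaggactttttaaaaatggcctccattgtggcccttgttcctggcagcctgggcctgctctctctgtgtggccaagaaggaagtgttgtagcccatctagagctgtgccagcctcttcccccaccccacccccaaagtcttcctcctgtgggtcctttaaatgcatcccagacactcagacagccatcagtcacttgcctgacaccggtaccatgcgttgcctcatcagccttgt
In Csn1s1 and Csn2, both caseins, the match began 100 and 93 bases before the start, and in Glycam1 it began 145 bases before it. The letters were not found in these windows of Wap, Lalba or Cel. Of the 12 listed markers 8 had a promoter in the table, 6 of them measured on the array, and 3 of those 6 held the motif. The casein Csn1s2a, not detected on the array, held a match that began 20 bases after the start. Olah, also not detected, held none, so 4 of the 8 held the motif. Over all 32851 promoters in the table, 2726 (8.30%) held it. A match describes the letters in a window and is not a measured binding site.

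The 2 sides were ends of a continuum. Scores on the high side were 10.78 in A9, 9.85 in J6, 9.18 in J5, 8.42 in J15, 8.27 in A3, 8.19 in A4, 8.19 in J10 and 8.13 in J3. Only 3 tumours therefore stood more than 1 log2 unit above the threshold, and the other 5 lay close to it. On the low side scores ran from 5.14 in J13 to 7.87 in J11, with J4 at 7.68 and A7 at 7.61. The gap between J3 and J11, on either side of the threshold, was 0.26.

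**Figure D1:**
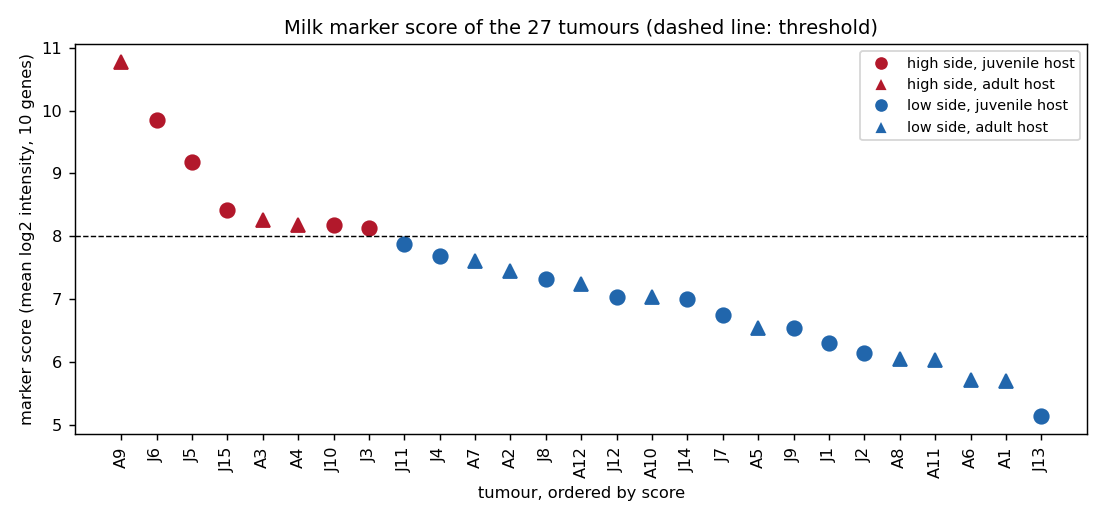
Marker score (mean log2 intensity of 10 milk genes, vertical axis) of each of the 27 tumours, ordered from highest to lowest. Circles are tumours of juvenile hosts, triangles of adult hosts, red the high side and blue the low side. The scores fall from 10.78 in A9 to 5.14 in J13, with no break at the dashed threshold of 8.

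Of the 12 marker genes 10 were measured, and since they chose the sides their values are a description with no test. Csn1s2a and Olah, a casein and the thioesterase that shortens milk fatty acids, each had 1 probe, with a detection p under 0.05 on 0 arrays of either side. Csn1s1 was at 9.52, 13.57 and 13.93 (lowest, median and highest log2 intensity) in the 8 high-side tumours and at 5.05, 8.83 and 12.99 in the 19 low-side tumours. All high-side tumours except J10 and J3 were above every low-side tumour. Csn2 ran 8.58, 10.36 and 13.33 on the high side and 4.61, 6.76 and 12.50 on the low side, a difference of means of 3.70 against 3.57 for Csn1s1. A9 was the single tumour above all others, and A10 of the low side was close behind it. Csn3 ran 13.33, 13.83 and 14.82 against 6.57, 12.29 and 14.27. Only A12, J1 and J8 of the low side were above the lowest high-side tumour, fewer than for any of the other 9 markers, and A12 and J1 were over 14. Csn1s2b, detected on 8 of 8 high-side and 6 of 19 low-side arrays, ran 4.77, 5.65 and 7.62 against 4.34, 4.61 and 6.07. Its low-side level was at background in most tumours.

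The whey proteins were not detected in most low-side tumours. Wap was detected on 8 of 8 high-side and 8 of 19 low-side arrays, and ran 5.14, 7.69 and 11.09 against 4.28, 4.69 and 9.43. It was high in A9 and J6 and low in A3, so that it did not follow Csn1s1, which was high in all 3. Lalba was detected on 8 of 8 and 5 of 19 arrays, at 4.83, 6.34 and 9.21 against 4.24, 4.56 and 7.47, with J6 alone above 9. Glycam1 ran 4.74, 7.90 and 10.18 against 4.33, 4.86 and 8.38. A9 and J5 were highest, while A4, on the high side, was near background. Cel was detected on 5 of 8 and 9 of 19 arrays, at 4.23, 6.46 and 10.60 against 4.36, 4.70 and 8.31. The fat globule gene Btn1a1 ran 6.48, 7.73 and 11.27 against 4.37, 5.59 and 8.33, and Xdh 8.15, 8.41 and 10.92 against 6.63, 7.82 and 10.30. Apart from A9, the high-side tumours lay within the low-side range for Xdh, and the difference of means of 0.75 was the smallest of the 10 markers.

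**Figure D2:**
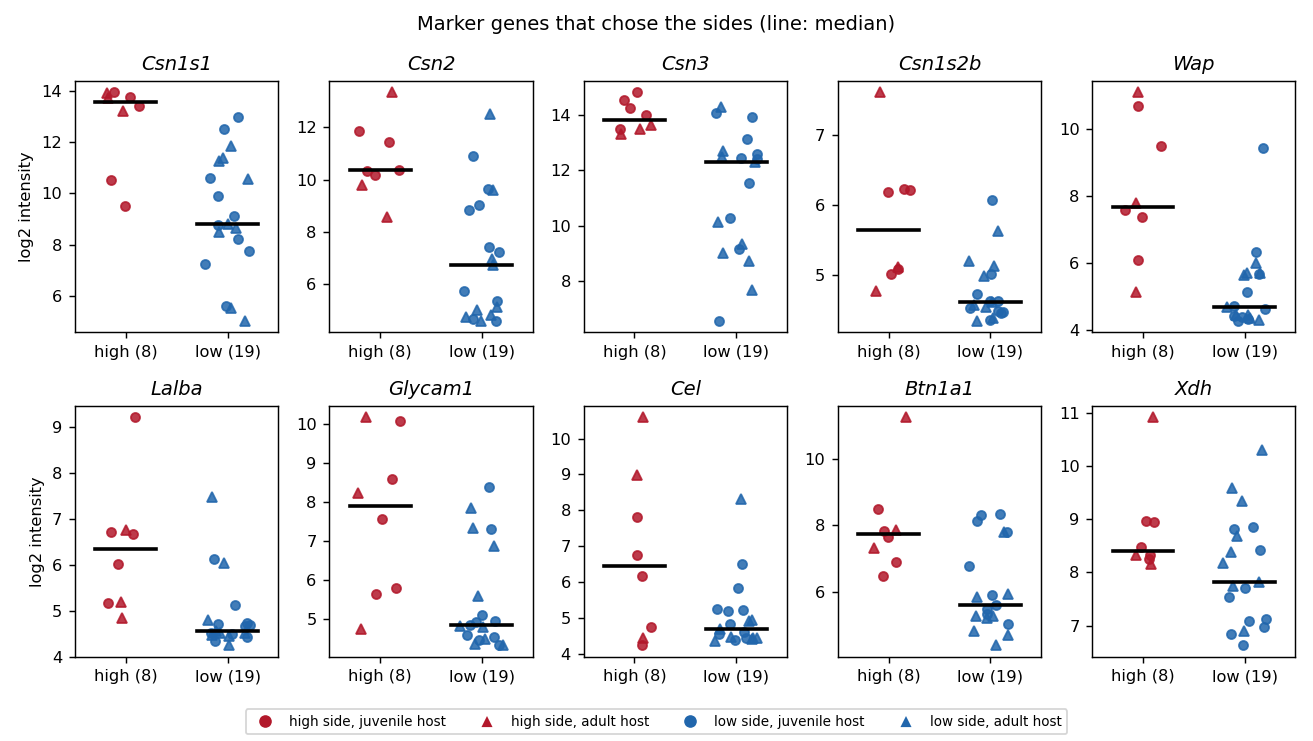
Log2 intensity (vertical axes, which differ between panels) of the 10 measured marker genes in each tumour of the high side (8, red) and the low side (19, blue), with circles for juvenile and triangles for adult hosts and a black line at the median. The caseins Csn1s1 and Csn2 differ most in their means, by 3.57 and 3.70, and Xdh least, by 0.75.

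J4 of the low side reached its highest Glycam1 value of 8.38 together with genes of lymph node. Its lymph node score, the mean of Ccl21a, Cxcl13, Fcer2a, Lyve1 and Ccr7, was 8.61, the highest of all tumours, and the high side ran from 4.73 to 5.86. Ccl21a, a chemokine of lymph nodes, stood at 15.01 in J4 and at 9.29 in A3, the next highest. A3, of the high side, had a Glycam1 of 8.23 and that side's highest lymph node score, 5.86. The Wap value of J4, 9.43, was also the highest of the low side, and its Csn2 was at 10.90. Its endothelial, skeletal muscle and adipocyte scores were 10.92, 10.88 and 9.14. Lymph node RNA in the Glycam1 values of J4 and A3 was not tested.

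Milk gene-high tumours arose in both host ages. They were 5 of 15 juvenile-host tumours (33.3%) and 3 of 12 adult-host tumours (25%). The odds ratio of 1.48 had a 95% interval from 0.21 to 12.35 (two-sided Fisher's exact test, p = 0.696), so these numbers leave a large difference in either direction possible. All 5 BeadChips held both sides, with 1 to 3 high-side tumours each (Fisher-Freeman-Halton exact test, p = 0.842). Arrays of the high side detected 17867 to 21050 of the 45281 probes (median 18566) and those of the low side 17958 to 20552 (median 18929; two-sided exact permutation test over tumours, p = 0.911). The mean level of ribosomal protein genes was 13.11 ± 0.16 (SD, n = 8) against 13.00 ± 0.22 (SD, n = 19; exact permutation test, p = 0.246). Median array intensity before normalization averaged 111.1 ± 9.0 (SD) on the high side and 106.7 ± 5.3 on the low side (exact permutation test, p = 0.132). Eef2, a translation elongation factor of all cells, was at 5.17 to 5.69 in 4 libraries and at 11.43 or more in the others. Of those 4, J3 and J10 were on the high side and J1 and J2 on the low side.

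The 8 high-side tumours differed from each other in luminal and STAT5-related genes. Foxa1, a pioneer factor of hormone-sensing luminal cells, was at 11.77 in A4, 11.67 in J3, 11.64 in J10, 8.27 in J15, 7.28 in A3, 5.90 in J6, 5.20 in A9 and 5.00 in J5. A4, J3 and J10 were the 3 highest of all 27 tumours, and A9, J6 and J5, with the highest milk scores, were the 3 lowest of the high side. Socs2, a feedback inhibitor that STAT5 induces, was at 13.22 in J6, 12.90 in A3, 12.79 in J5, 12.64 in J15, 10.33 in A9, 9.52 in A4, 9.44 in J3 and 9.36 in J10. The 3 tumours with high Foxa1 thus had the lowest Socs2 of the high side. Those 3 also had the lowest Glycam1 of the high side, at 4.74 in A4, 5.63 in J10 and 5.80 in J3. J3 and J10 were the high-side tumours with low Eef2, and A4, with an Eef2 of 12.3, was not. Krt5, a basal keratin, ranged from 4.32 in J15 to 11.87 in A9, and Kit, the receptor that marks luminal progenitors, from 7.94 in J15 to 12.74 in A9. The low side also held tumours with high Foxa1 and low Socs2. There, 6 tumours had Foxa1 over 10, with Socs2 from 9.12 in A7 to 10.11 in J13. Socs2 was over 12 in 5 low-side tumours. These contrasts were picked out after the values had been seen and carry no test.

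**Figure D3:**
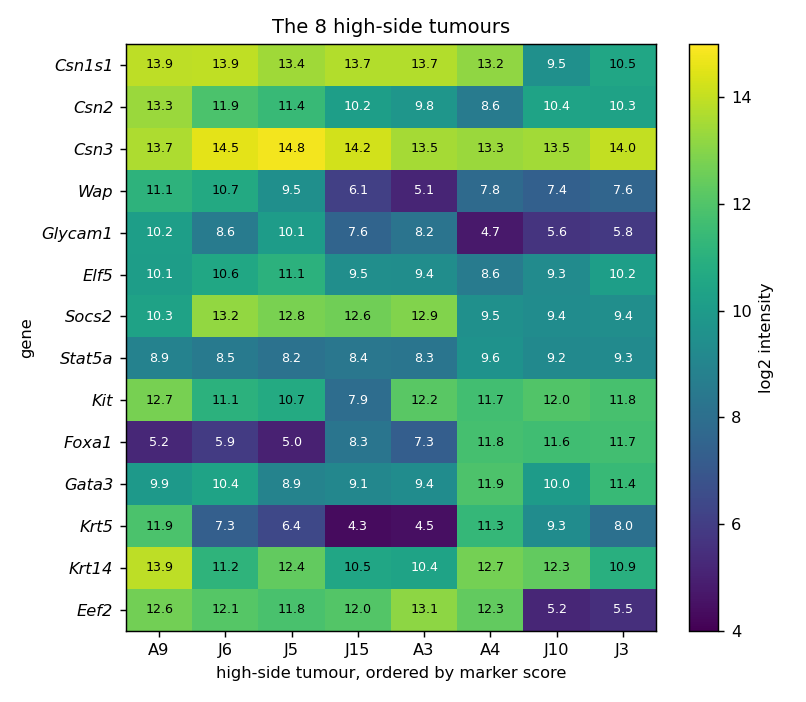
Log2 intensity (colour and printed value) of 5 marker genes and 9 other genes (rows) in the 8 high-side tumours (columns, ordered by marker score). A4, J10 and J3 combine Foxa1 of 11.6 to 11.8 with Socs2 of 9.4 to 9.5, while J6, J5, J15 and A3 have Socs2 of 12.6 to 13.2.

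Outside the markers, no single gene separated the sides beyond the spread between tumours. By limma on 19332 probes, 0 (0%) passed a Benjamini-Hochberg adjusted p of 0.05, and the smallest adjusted p was 0.588. Without adjustment, 576 probes had a p under 0.05 (966.6 would be expected by chance), of which 402 had the larger mean on the high side and 174 the smaller. With 1 probe per gene, 242 of 10748 genes (2.25%) were higher at that unadjusted level and 109 (1.01%) lower. The high-side mean was the larger in 5491 genes (51.1%), and the median difference over all genes was 0.0065 on the log2 scale. Scaling arrays to their medians moved that median to 0.13 and the unadjusted split to 913 higher and 48 lower. The median standard error of a probe's difference was 0.26, so that many 2-fold differences could have been missed. Below, "higher" and "lower" describe means, and no difference passed the test. For single genes the text also counts tumours of one side above or below the median or range of the other. The share of all genes with such a separation was not counted. Genes named for a small p, among all genes or within a list, tend to separate the sides by that choice alone.

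The low side was of mixed epithelial make-up. The epithelial score, the mean of 17 keratin, junction and other epithelial genes, ran from 8.95 (J15) to 10.10 on the high side and from 5.29 to 10.19 on the low side. Low-side tumours with scores under 8.95 were A5 at 5.29, J4 at 5.55, A6 at 5.56, A1 at 7.61, A10 at 8.54 and A8 at 8.90. A8 was thus next to J15 of the high side. For some lists and genes below, differences are given also without these 6 tumours and with the score as a covariate. Differences given without these settings were not adjusted for epithelial content and may change with it. Both settings draw on the same genes, and dropping low-side tumours alone on this score shrinks the epithelial difference by construction. In bulk tumours, fewer cells of a type and less RNA per cell cannot be told apart.

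Elf5, the alveolar transcription factor that works with STAT5, had one of the larger differences. It was at 8.57, 9.79 and 11.06 (lowest, median and highest) on the high side and at 4.67, 8.38 and 9.96 on the low side. All 8 high-side tumours were above the low-side median and 4 were above every low-side tumour, but 9 low-side tumours were above the lowest high-side one. The log2 difference was 2.17 ± 0.63 (SE; limma adjusted p = 0.999, unadjusted p = 0.0019). It was 1.16 without the 6 tumours low in epithelial genes and 1.32 with the epithelial score as a covariate. Stat5a itself ran 8.16, 8.69 and 9.60 against 6.14, 7.97 and 11.27, a difference of 0.74 ± 0.48 (SE), or 0.26 under either setting. The 8 tumours were again above the low-side median, while the 2 highest tumours, J12 and J13, were on the low side. In juvenile and adult hosts Stat5a differed by 0.10 ± 0.61 and 1.51 ± 0.60 (SE), and Elf5 by 2.01 ± 0.60 and 2.18 ± 1.17. Neither difference between host ages passed (limma interaction, adjusted p = 0.9255 for Stat5a and 0.9941 for Elf5). Of the cytokine feedback genes, Cish differed by 0.56 ± 0.34, Socs2 by 0.54 ± 0.61 and Socs3 by -0.18 ± 0.37 (SE). Of the 13 measured prolactin, STAT5 and alveolar regulators, 8 were higher and 1, Elf5, had an unadjusted p under 0.05, and the list's median difference was 0.27 (0.17 without A9). It was 0.10 without the 6 tumours and 0.11 with the covariate. Stat5b was detected on 0 arrays, and Prlr, the prolactin receptor, has no probe under that name.

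Other secreted milk or alveolar products, which the rule had not used, had a median difference of 0.93, with 13 of 17 higher and 6 at the unadjusted level. Over all genes, 51.1% were higher and 2.25% were higher at that level. Folr1, a folate receptor shed into milk, ran 6.85, 7.55 and 8.61 on the high side and 4.47, 5.72 and 9.69 on the low side. The high side lay above the low-side median throughout, yet 6 low-side tumours were above its lowest, and the difference was 1.50 ± 0.52 (SE). Trf, transferrin, ran 13.43, 14.19 and 14.74 against 9.52, 12.93 and 14.95, with a difference of 1.31 ± 0.54. The iron-binding milk protein Ltf differed by 2.11 ± 1.02, Wfdc18, of the same domain family as Wap, by 1.51 ± 0.69, and the growth factor Tgfb2 by 1.00 ± 0.40 (SE). Mfge8, a fat globule protein, was high in all tumours, at 13.26 to 15.01, and differed by 0.27 ± 0.21. The 4 lower members were Saa3 at -1.01 ± 0.70, Fcgrt at -0.54 ± 0.31, B2m at -0.10 ± 0.20 and Apoe at -0.09 ± 0.21 (SE). Without the 6 tumours low in epithelial genes the median difference of this list was 0.19, and with the covariate 0.30. Folr1 then differed by 1.15 and 1.07, Ltf by 1.19 and 1.11, Trf by 0.62 and 0.81, and Wfdc18 by 0.31 and 0.63. In juvenile and adult hosts Ltf differed by 0.58 ± 1.05 and 4.03 ± 1.61 (SE), and Wfdc18 by 0.51 ± 0.44 and 2.77 ± 1.35. Folr1 differed by 1.61 ± 0.53 and 1.37 ± 1.00, and Trf by 1.26 ± 0.59 and 1.34 ± 0.97. The interaction with host age passed for none of them (limma, adjusted p of 0.923 or more).

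Milk fat genes were split. Thrsp, which promotes fatty acid synthesis in the lactating gland, ran 6.12, 8.26 and 10.32 against 4.28, 6.28 and 9.68, a difference of 2.02 ± 0.67 (SE). All high-side tumours but A4 were above the low-side median, and 10 low-side tumours were above the lowest high-side one. Acss2, which makes acetyl-CoA from acetate, differed by 0.85 ± 0.32, the fatty acid carrier Fabp3 by 0.98 ± 0.43 and the elongase Elovl6 by 0.67 ± 0.36. The lipase Lpl, which draws fatty acids from blood lipids, differed by -0.15 ± 0.43. Over the 27 measured lipid genes, 19 were higher, 3 at the unadjusted level, and the median was 0.10 (0.19 without A4). Fasn was detected on 4 arrays and was not tested.

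Genes of lactose synthesis, transport and the secretory pathway showed little shift as groups. Of 17 genes for lactose synthesis and nutrient or ion transport 8 were higher, with a median of -0.04 that turned positive with median scaling (0.07). The zinc exporter Slc30a2, which loads zinc into milk, differed by 1.28 ± 0.59 (SE), the water channel Aqp5 by 1.27 ± 0.90, the scaffold Slc9a3r1 by 0.71 ± 0.38, and B4galt1, the catalytic subunit of lactose synthase, by 0.15 ± 0.21. The amino acid carrier Slc1a5 differed by -0.37 ± 0.37. Of 20 genes of endoplasmic reticulum, Golgi and vesicles 11 were higher (median 0.03), and of 16 genes of the unfolded protein response 9 (median 0.04). Xbp1, a transcription factor of the unfolded protein response that professional secretory cells need, stood out among both lists. It ran 12.15, 13.15 and 14.24 on the high side and 11.41, 12.18 and 13.76 on the low side, 0.79 ± 0.30 (SE) apart. J6, A9 and J5, the 3 tumours with the highest marker scores, were above every low-side tumour. Dnajb9 and Ddit3 of the same response, a chaperone partner and a stress factor, differed by -0.38 ± 0.21 and -0.41 ± 0.36, and the secretory genes Ssr2, Spcs1 and Srp9 by at most 0.21 in size.

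**Figure D4:**
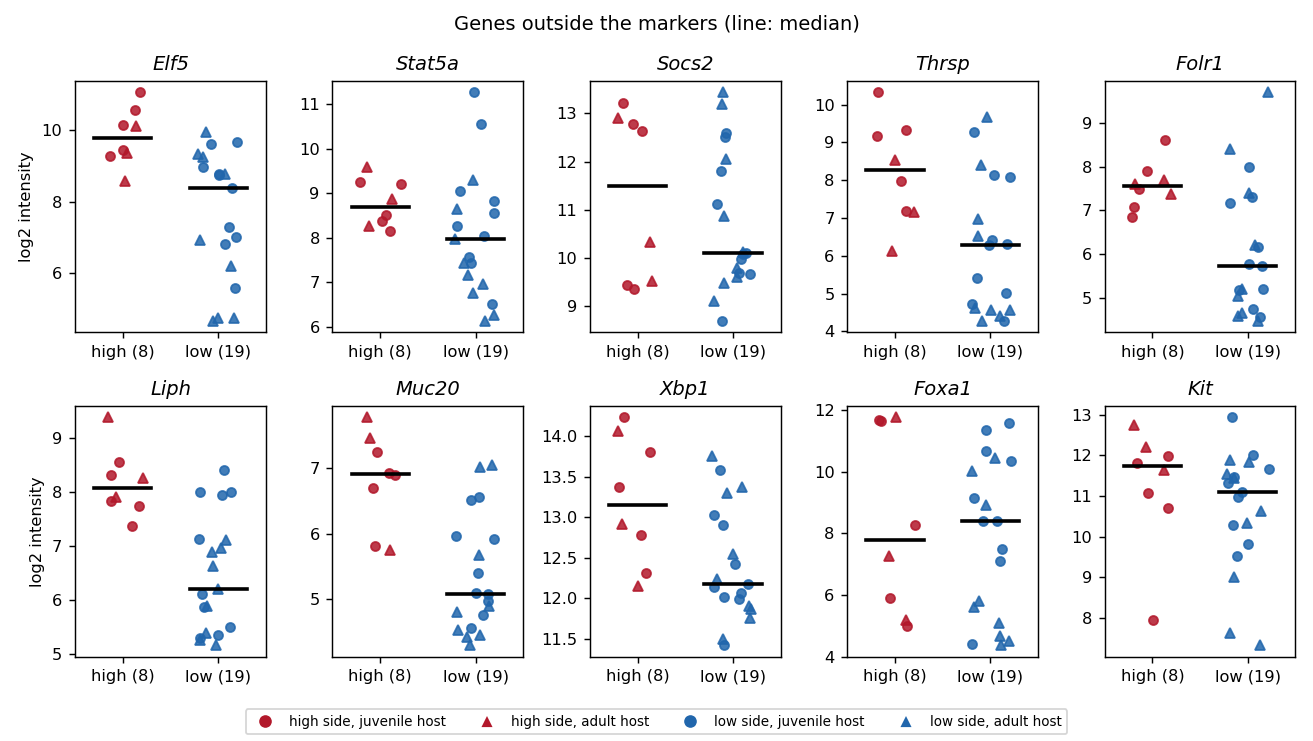
Log2 intensity (vertical axes, which differ between panels) of 10 genes outside the markers in each tumour of the high side (8, red) and the low side (19, blue), with circles for juvenile and triangles for adult hosts and a black line at the median. Elf5, Stat5a, Folr1, Liph and Muc20 lie above the low-side median in all 8 high-side tumours. On the high side Foxa1 is at 11.64 to 11.77 in A4, J3 and J10 and spreads from 5.00 to 8.27 in the others. Socs2 spreads from 9.36 to 13.22 there. The sides overlap in every panel.

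The genes with the smallest p among those higher on the high side were Liph, Muc20, 1700012B07Rik, Alpl, Tgfb3 and Timd2. Liph, a phospholipase that makes lysophosphatidic acid, ran 7.37, 8.08 and 9.39 against 5.16, 6.22 and 8.41. All 8 high-side tumours exceeded the low-side median, 4 low-side tumours reached above the lowest of them, and the difference was 1.69 ± 0.39 (SE; limma adjusted p = 0.999). A second, dimmer Liph probe and a dimmer probe of Tada2a shared the smallest adjusted p of all probes, 0.588. Muc20, a membrane mucin, ran 5.75, 6.91 and 7.78 against 4.30, 5.08 and 7.04, a difference of 1.45 ± 0.35. A9, A3 and J15 were above every low-side tumour. Muc20 was detected on 8 of 8 high-side and 11 of 19 low-side arrays, and 1700012B07Rik on 8 of 8 and 5 of 19. Both thus met the filter of 12 arrays only with the high-side arrays counted. The low-side median of 1700012B07Rik, 4.57, was near background. Alpl, the tissue-nonspecific alkaline phosphatase, differed by 1.62 ± 0.44, Timd2, a receptor for ferritin, by 1.61 ± 0.44, Tgfb3, a growth factor induced by milk stasis at involution, by 0.99 ± 0.27, and 1700012B07Rik by 0.73 ± 0.18.

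Among genes lower on the high side the smallest p belonged to Adarb1, Mbnl1, Kctd10, Serpinb6a, Pttg1ip and Gpr137b-ps. Adarb1, which edits adenosines in RNA, ran 6.30, 7.04 and 7.73 on the high side and 6.89, 7.89 and 9.61 on the low side. All 8 high-side tumours were below the low-side median, and the difference was -1.02 ± 0.28 (SE; limma adjusted p = 0.999). Mbnl1, a splicing regulator, ran 10.27, 10.82 and 11.06 against 10.80, 11.25 and 12.49, and differed by -0.56 ± 0.16. Only 3 low-side tumours fell below the highest high-side one. The other 4 differed by -0.91 to -0.53.

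Luminal progenitor and epithelial genes had higher means on the high side. Of 12 luminal progenitor genes 10 were higher (median 0.69), 3 at the unadjusted level: Elf5, Ltf and Tnfrsf11a, the receptor RANK, at 0.78 ± 0.33 (SE). Lcn2, an iron-scavenging lipocalin, differed by 1.28 ± 0.63, and Kit by 0.60 ± 0.59. Of 17 epithelial keratin and junction genes 16 were higher, with a median of 0.97, and 2 at the unadjusted level. Esrp2, a splicing factor of epithelia, ran 8.67, 9.21 and 9.80 against 4.31, 8.38 and 9.85 and differed by 1.51 ± 0.60. The high side was tightly placed in the upper part of the low side's much wider range. Elf3, Grhl2 and Esrp1, regulators of the epithelial state, differed by 1.21 ± 0.58, 0.95 ± 0.52 and 1.30 ± 0.79, and Krt8 by 0.80 ± 0.71. The luminal progenitor median was 0.17 without the 6 tumours and 0.18 with the covariate. Tnfrsf11a was at 0.90 under either, Lcn2 at 0.19 and 0.32, and Kit at 0.02 and 0.15. In juvenile and adult hosts Kit differed by -0.40 ± 0.62 and 2.02 ± 0.95 (SE). Tnfrsf11a differed by 0.89 ± 0.38 and 0.62 ± 0.60, and Lcn2 by 0.92 ± 0.64 and 1.60 ± 1.11. No interaction with host age passed for these genes (limma, adjusted p of 0.923 or more).

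Hormone-sensing luminal and basal genes had smaller median differences. Of 9 mature luminal genes 7 were higher (median 0.20), with Gata3 at 1.11 ± 0.64 (SE), Foxa1 at 0.53 ± 1.06, Esr1 at 0.01 ± 0.26 and the estrogen-induced Greb1 at -0.54 ± 0.43. Esr1 was detected on 4 of 8 high-side and 11 of 19 low-side arrays. The sign of this median was not stable: it was -0.33 without the 4 low-Eef2 libraries, -0.11 without J3, -0.14 without the 6 tumours low in epithelial genes and -0.47 with the covariate. Of 15 basal and myoepithelial genes 12 were higher (median 0.32), 0 at the unadjusted level, with Krt5 at 0.82 ± 1.17 (0.25 without A9), Krt14 at 0.75 ± 1.03, the cadherin Cdh3 at 0.80 ± 0.67, Lgals7 at 1.11 ± 0.98, the integrin Itga6 at 0.31 ± 0.27 and Dst, a linker of keratins to hemidesmosomes, at -0.48 ± 0.46. The basal median was 0.08 without A4, 0.05 without the 6 tumours and -0.02 with the covariate.

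Mesenchymal and stromal genes had lower means on the high side. All 12 measured mesenchymal genes were lower (median -0.40), 2 at the unadjusted level. Zeb1, a repressor of epithelial genes, ran 6.71, 6.91 and 7.71 against 6.12, 7.88 and 11.34, and differed by -1.15 ± 0.52 (SE). Each high-side tumour was below the low-side median. Prrx1 and Twist1, other transcription factors of mesenchyme, differed by -0.88 ± 0.39 and -0.83 ± 0.60, and the filament Vim by -0.85 ± 0.56. Of 15 collagen and fibroblast genes 14 were lower (median -0.54), with Pdgfra at -0.79 ± 0.54, Col3a1 at -0.57 ± 0.41, Sparc at -0.52 ± 0.38 and Col5a2 at -0.32 ± 0.21. Of 13 endothelial genes 12 were lower (median -0.79), with the vessel genes Plvap, Flt1, Emcn and Esam at -1.07 to -0.76. Without the 6 tumours low in epithelial genes these 3 medians were -0.16, -0.14 and -0.29, and with the covariate -0.18, -0.20 and -0.18. Neutrophil genes were lower in 8 of 8 (median -0.54), but J11 of the low side stood apart with a neutrophil score of 11.07, and without it the median was -0.30. Macrophage genes were lower in 10 of 12 (median -0.14, turning to 0.02 with median scaling).

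Lists of cell cycle genes and growth regulators had small median differences, while some single genes differed more and in both directions. Of 19 S phase genes 14 were higher (median 0.10), with Mcm5, Mcm6, Gins1 and Gins2 at 0.21 to 0.28, and of 14 mitotic genes 5 (median -0.07, or 0.11 with median scaling), with Foxm1 at -0.43 ± 0.33 and Aurkb, Bub1b and Cenpa between -0.15 and 0.22. Ccnd1, a cyclin of the G1 phase, differed by -0.22 ± 0.26 (SE). Of 14 p53 targets 12 were lower (median -0.23), 0 at the unadjusted level. Cdkn1a, a cell cycle inhibitor, differed by -0.60 ± 0.30, and Aen, Tnfrsf10b and Sesn2 by -0.34 to -0.16. Of 14 growth factor receptors and ligands 8 were higher (median 0.04), with Erbb2 at 0.61 ± 0.40, Igf1r at 0.11 ± 0.34, Fgfr1 at -0.55 ± 0.59, Igf1 at -0.65 ± 0.62 and Igf2 at 0.82 ± 1.01. Single tumours moved these ligands, to -0.36 for Igf1 without A10 and to 0.17 for Igf2 without J15.

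Genes of post-lactational involution, when milk-filled alveoli die back, differed in both directions. Of 18 genes 10 were higher (median 0.09), 3 of them at the unadjusted level, and 1 was lower at that level. Stat3, the transcription factor that drives involution, differed by 0.63 ± 0.30 (SE), and Pik3r1, a regulatory subunit of PI3 kinase, by 0.70 ± 0.26. Dimmer probes of Stat3 differed by 0.50 ± 0.30 and 0.12 ± 0.52 (SE), neither at the unadjusted level. Mmp3, a matrix protease of stroma, ran 5.52, 7.85 and 9.48 against 5.74, 9.00 and 12.19 and differed by -1.70 ± 0.66. All high-side tumours but J5 were below the low-side median. In adult hosts Mmp3 differed by -3.97 ± 0.78 and in juvenile hosts by -0.05 ± 0.72, and Pik3r1 by 1.59 ± 0.36 and 0.11 ± 0.29. The difference between host ages did not pass for either gene (limma interaction, adjusted p = 0.923 for both, unadjusted p = 0.00179 and 0.00375).

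**Figure D5:**
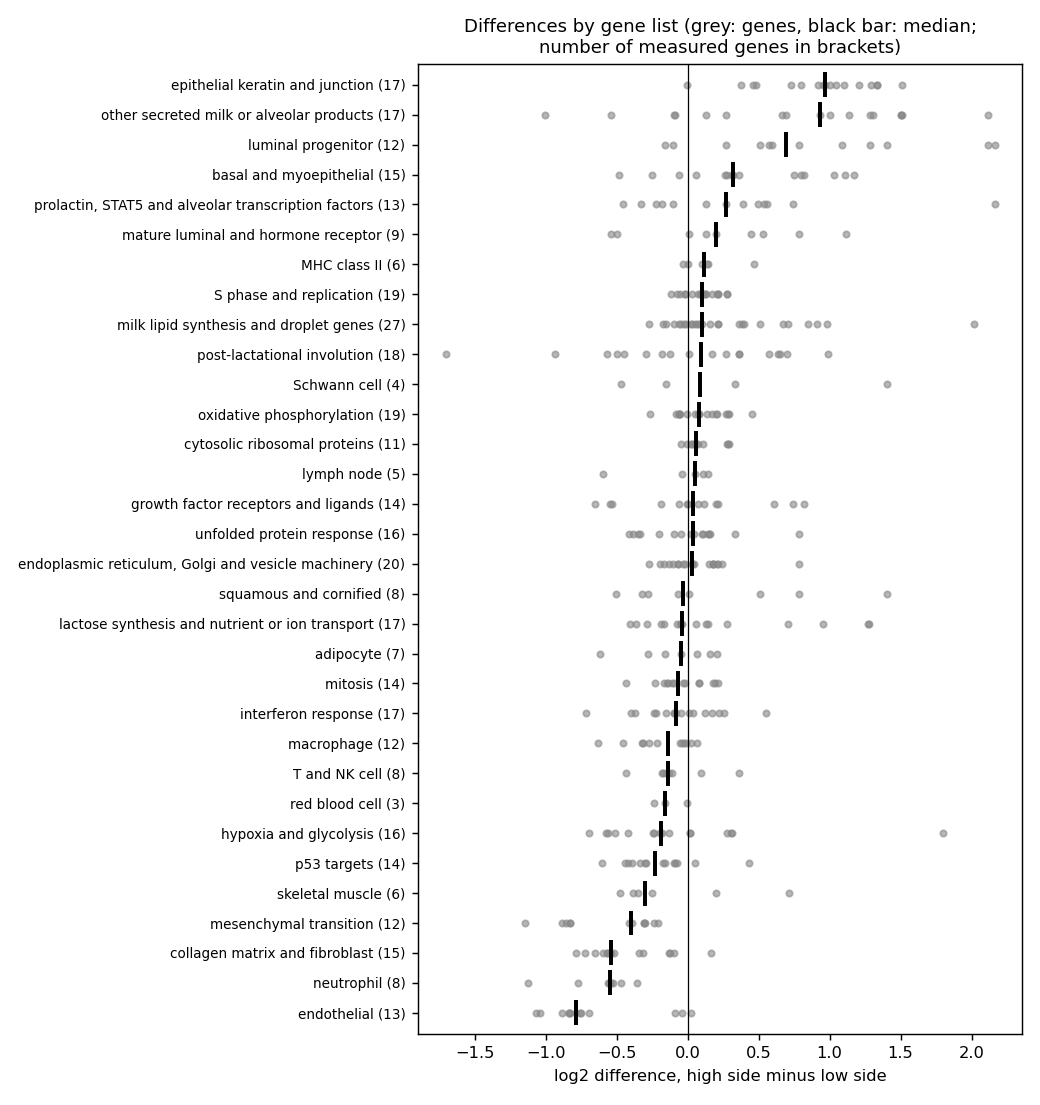
Log2 difference of means, high side minus low side (horizontal axis), of each measured gene (grey points) in 32 gene lists with at least 3 measured genes (rows), with the list's median as a black bar. Epithelial, other milk product and luminal progenitor lists have the highest medians (0.97, 0.93 and 0.69) and the endothelial list the lowest (-0.79), and 0 genes passed the test.

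Within adult hosts, 1 of 19332 probes (0.00517%) passed. Atp6v1b1, a subunit of the proton pump V-ATPase, was at 7.73 in A9, 7.41 in A3 and 6.61 in A4, the 3 high-side tumours, and at 4.28 to 5.17 in the 9 low-side tumours. The difference was 2.65 ± 0.29 (SE; limma adjusted p = 0.00857). The call ended without A3 (adjusted p = 0.132) or A9 (0.153). In juvenile hosts, where 0 probes passed (472 at the unadjusted level), Atp6v1b1 averaged 5.01 in 5 high-side and 4.92 in 10 low-side tumours, 0.09 ± 0.32 apart. The difference between the host ages was itself 2.56 ± 0.45 and did not pass (limma interaction, adjusted p = 0.102). That interaction gave 0 calls over all probes and 990 at the unadjusted level. Mmp13, a collagenase, was at 6.84 to 7.00 in the same 3 adult-host tumours and at 9.82 to 13.89 in the other 9, a difference of -4.99 ± 0.75 (limma adjusted p = 0.0942). In juvenile hosts it differed by 0.82 ± 1.02, and the interaction did not pass (adjusted p = 0.923). Both genes were singled out after their values had been seen. The share of all probes that separate these 3 tumours from the other 9 was not counted.

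With the marker score as a continuous measure in place of the sides, 0 probes passed and 1139 had an unadjusted p under 0.05. The smallest adjusted p, 0.0558, was shared by Timd2, at 0.75 ± 0.13 (SE) per log2 unit of score, and Muc20, at 0.61 ± 0.11. Among probes with a gene name Xbp1 followed at 0.44 ± 0.09 per unit, together with the glucose and mannose carrier Slc5a9 at 0.72 ± 0.14 and the proline dehydrogenase Prodh at 0.73 ± 0.15 (limma adjusted p = 0.0904 for each). With the chip as a block 2 probes passed, one without a gene name and one of Muc20 (smallest adjusted p 0.0488).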

How the data were processed

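RNA of 27 tumours was hybridised to Illumina mouse BeadChips. Per the file headers, the deposited file gives each probe's mean bead intensity, not normalized, and a detection p-value. The authors also deposited processed log2 values, whose columns matched quantile normalization of log2 intensities to within 0.00855. Both lumi and limma are named in the submitters' processing notes (versions not given in the sources used here). For the present tests intensities (array medians 98.2 to 127.5) were background-corrected and quantile-normalized by limma's neqc (version 3.58.1, R 4.3.3; offset 16, controls inferred from the detection p). Probes were kept if their detection p was below 0.05 on 12 or more arrays (19344), and 12 marker probes were left out of the tests. A gene's probe was its brightest one kept. Of all probes 34885 had 1 gene symbol, 18 several and 10378 none. Genome coordinates are those of RefSeq promoters only.

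Sides were compared with limma's lmFit and eBayes with Benjamini-Hochberg adjustment over 19332 probes, after testing on simulated data. Exact tests enumerated all 2220075 placements of 8 tumours among 27, in place of the 100000 resamples planned. The members, the 34 lists (562 genes, 404 measured, 111 with too few detections, 47 without a probe) and the named genes were chosen with earlier results of these data known. One list, other exocrine glands, had 0 measured genes. Named genes were 25 preset ones (19 measured), the 6 with the smallest p in each direction, up to 4 members with the smallest p of 18 lists, the markers and Eef2. Which 18 lists to describe was chosen after values were seen. Alternatives covered background correction, normalization, filter, chip, replicate number, host age, epithelial content, thresholds, markers and each tumour left out. Figures were drawn with matplotlib 3.10.9. The number of arrays limits the precision.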

Additional observations from a re-analysis of the deposited data

Results flagged for a closer look

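Of 139 markers, named genes and list scores examined within the 8 high-side tumours, 10 had 1 tumour far from the other 7 by Dixon's test. Chance flags about 1 in 20 such groups. Markers were 3 of them: Lalba in J6 at 9.21 (next 6.74), Btn1a1 in A9 at 11.27 (next 8.495) and Xdh in A9 at 10.92 (next 8.96), so the high side's Xdh and Btn1a1 means lean on A9. In J15, Kit was low at 7.94 (next 10.72), and Serpinb6a at 11.60 (next 10.92), Srp9 at 10.38 (next 9.62) and Dst at 7.60 (next 6.97) were high. Itga6 was high in J5 at 7.40 (next 6.54), and the fat globule gene Mfge8 was low in A4 at 14.02 (next 14.55). The skeletal muscle score, a mean log2 level of 6 genes, was 9.45 in A3 (next 6.31). The causes were not tested.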

How the results depend on the processing

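Of 57 alternatives, 53 gave 0 called probes by limma, including each tumour left out in turn (0 to 0 calls, with 473 to 849 at an unadjusted p under 0.05), the authors' values, median scaling, the chip as a fixed or random block, other thresholds and the keratin score as a covariate. The other 4 gave 656 within chip 3, 1 within adult hosts, 2 for the slope on the score with the chip as a block, and 147 with the replicate block. Within chip 3 the high side is J10 alone, a low-Eef2 library, assumed to vary like the others. The replicate block used 24 tumours with 12 shared numbers, but the numbers do not pair the tumours (2 of 12 correlations over 0.1, 0 best with their own number). Among 93 named genes, 16 were called in at least 1 alternative and 0 called values changed sign. The slopes with the chip as a block or with the keratin score, the fits without J4 (0 calls, 496 unadjusted), at 8 arrays (0, 658), without each adult-host tumour and the list medians without each tumour were added after seeing the data. Without the 4 low-Eef2 libraries 0 probes were called (766 unadjusted). The 57 alternatives were not all distinct. The fit without J4 is counted both among the tumours left out and among the added fits. The authors' values gave the same counts as quantile normalization without background correction. Another score shifts the scale, so membership was compared by rank: of the 8 high-side tumours, 7 stayed among the 8 highest with the authors' values, 6 with the median of the markers, 7 without Csn3 and 7 without Cel in the score, and all 8 under the other 9 scores. Held to the fixed threshold of 8, the number of tumours above it ran from 3 (without Csn3, or with all 12 markers) to 18 (authors' values). Leaving out 1 tumour turned the sign of the median of 14 of 33 lists, none of them with a median over 0.22 in size. Fisher's exact p for host age was 0.696 at a threshold of 7.5 and 1 at 8.5.

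The sides rest on a threshold with no gap beside it, the low side holds tumours of mixed make-up, and dim probes (Esr1, Csn1s2b, Lalba) are compressed toward background. A p over the threshold does not show that levels were equal.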
